A study of Drosophila melanogaster with 2 samples.

Results

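PIWI-interacting RNAs (piRNAs) are small RNAs that guide Argonaute proteins of the PIWI type to the transcripts of transposons. In the fly germ line, long precursor transcripts are cut into piRNAs at the mitochondrial surface and in the nuage, a cytoplasmic granule around germ cell nuclei. Aubergine and Argonaute 3 amplify them there by cutting transposon RNA in turn, whereas Piwi enters the nucleus and silences transcription. The pathway is best known from the ovary and testis, and its proteins and mRNAs are also loaded into the egg.

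The 10 piRNA pathway genes described here are piwi, aub, AGO3, vas, tud, spn-E, krimp, armi, zuc and squ. They were taken by name and not by a cut on their values, but with earlier results of these data known. All 10 were found by exact, case-sensitive symbol among the 13623 genes of the expression table. They comprise 3 PIWI-type Argonautes (piwi, aub and AGO3), 4 nuage helicases and Tudor domain proteins (vas, tud, spn-E and krimp) and 3 factors of piRNA production (armi, zuc and squ).

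The table holds nuclear RNA-seq of 2 libraries of Drosophila melanogaster embryos, 1 of neurons and 1 of neural stem cells (NSCs). Neuronal nuclei came from 12 to 14 h old embryos with the driver Elav-Gal4, and NSC nuclei from 5 to 7 h old embryos with the driver Sca-Gal4/cyo. Both genotypes carried UAS-3xFLAG-blrp-mCherry-RanGap, a tag that sits on the nuclear envelope and by which nuclei were pulled down through its FLAG epitope (INTACT), so each group is defined by where its GAL4 driver was active. The sample labels speak of cross-linked embryos and the methods of RNA from embryos that were not cross-linked, and this was not resolved.

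With 1 library per group, no value below has a replicate check or a p-value. The libraries differ at once in cell type, in the age of the embryos and in the driver, and these cannot be told apart. Values are FPKM, fragments scaled to transcript length and sequencing depth, which allow levels to be compared between genes. The change of a gene is log2((neuron FPKM + 1)/(NSC FPKM + 1)), where the added 1 understates the change of low genes. Genes were compared where either library reached 1 FPKM, and a change of 1 or more in size was called 2-fold. All 10 genes were compared.

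The steps of the lowest FPKM values placed the depth at about 70650000 mapped fragments in the neuron library and 65500000 in the NSC library. Of the genes that mark the captured cells, fne had 276 FPKM in neurons and 10.3 FPKM in NSCs, and sca had 4.72 FPKM in neurons and 63.96 FPKM in NSCs. Of 8 neuron markers 7 were at least 2-fold higher in neurons, elav being the exception with a change of 0.72, and of 8 NSC markers 3 were at least 2-fold lower, with insc the highest at 0.53. The muscle gene Mhc, however, had 338 FPKM in neurons and 59.5 FPKM in NSCs, above fne in each library but below sca in NSCs. The paper scored purified nuclei and reported that most were of the intended type in both groups. The share of nuclei from other cells was not tested here. In nuclei pooled from many cells, fewer cells that express a gene and less RNA per cell cannot be told apart.

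The first question was how the piRNA pathway genes differ between the libraries. Of the 10 genes, 6 were at least 2-fold lower in neurons (piwi, aub, AGO3, krimp, zuc and squ), 2 were at least 2-fold higher (vas and tud), and spn-E and armi stayed within 2-fold. Of all 10158 genes compared, 16.6% were at least 2-fold lower and 26.9% at least 2-fold higher. The median change of the 10 genes was -1.11, compared with 0.14 for all genes compared. Among the 6451 genes whose NSC level lay within the range of the 10 genes (3.45 to 102 FPKM), 18.96% were at least 2-fold lower, 18.15% were at least 2-fold higher, and the median change was -0.09. The summed level of the 10 genes was 124 FPKM in neurons and 274 FPKM in NSCs.

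**Figure D1:**
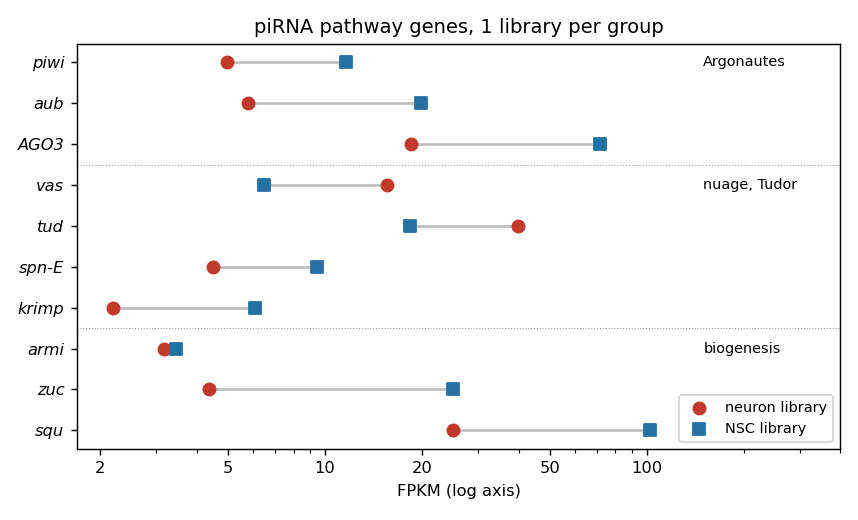
FPKM (log axis) of the 10 piRNA pathway genes in the neuron library (circles) and the NSC library (squares), 1 library each, grouped by role. The neuron value lies to the left of the NSC value for 8 genes and to its right for vas and tud.

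The 3 PIWI-type Argonautes were all lower in neurons. AGO3, the slicer that mainly carries sense-strand piRNAs, had 18.5 FPKM in neurons and 71.6 FPKM in NSCs, a change of -1.90. Its partner aub, which binds antisense piRNAs and cuts transposon RNA, had 5.77 FPKM in neurons and 19.97 FPKM in NSCs, a change of -1.63. The nuclear member piwi had 4.96 FPKM in neurons and 11.6 FPKM in NSCs, a change of -1.08, just past the threshold. AGO3 was thus the most abundant of the 3 in each library, with 63.3% of their summed FPKM in neurons and 69.4% in NSCs. The change of AGO3 ranked 413 from the lowest of the 10158 genes compared, that of aub 626 and that of piwi 1482.

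The Argonautes of the other small RNA pathways stayed close to even. AGO1, which binds microRNAs, had 135 FPKM in neurons and 154 FPKM in NSCs, a change of -0.19. AGO2, which binds small interfering RNAs, had 125 FPKM in neurons and 149 FPKM in NSCs, a change of -0.26. The PIWI-type genes therefore made up 10.1% of the summed FPKM of the 5 Argonaute genes in neurons and 25.4% in NSCs. In both libraries AGO1 and AGO2 were each above every PIWI-type gene.

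The 4 nuage genes were split. The gene tud encodes the protein that named the Tudor domain, which binds methylated arginines of Aubergine, and had 39.7 FPKM in neurons and 18.5 FPKM in NSCs, a change of 1.06. The DEAD-box helicase gene vas, often used as a germ cell marker, had 15.6 FPKM in neurons and 6.48 FPKM in NSCs, a change of 1.15. These were the only 2 of the 10 genes with more FPKM in neurons. The Tudor domain gene krimp, whose product holds Argonaute 3 and Aubergine together, had 2.19 FPKM in neurons and 6.06 FPKM in NSCs, a change of -1.14. The gene spn-E, which encodes a helicase with a Tudor domain, had 4.51 FPKM in neurons and 9.49 FPKM in NSCs. Its FPKM ratio was 2.10-fold lower in neurons, but with the added 1 its change was -0.93 and did not reach 2-fold.

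The production factors held both the largest and the smallest changes of the 10 genes. Transcripts of zuc, the mitochondrial endonuclease that cuts piRNA precursors, were at 4.36 FPKM in neurons and 25.1 FPKM in NSCs, a change of -2.28. This was the lowest change of the 10 genes and ranked 212 from the lowest among all genes compared. The gene squ, whose product is found in the nuage and binds Aubergine, had 25.1 FPKM in neurons and 102.2 FPKM in NSCs, a change of -1.99. By contrast the helicase gene armi, needed to load Piwi, had 3.17 FPKM in neurons and 3.45 FPKM in NSCs, a change of -0.09.

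**Figure D2:**
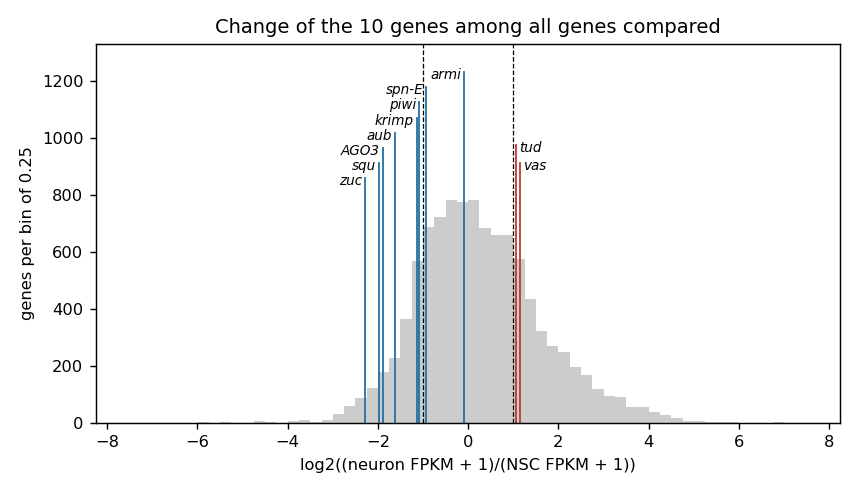
Histogram of the log2 change of all 10158 genes compared (x axis, neuron over NSC; y axis, genes per bin), with a line for each of the 10 piRNA pathway genes (blue below 0, red above 0) and dashed lines at 2-fold. The lines of 6 genes lie left of the lower dashed line, from -2.28 for zuc to -1.08 for piwi, and those of tud and vas lie just right of the upper one.

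Counting error was small beside most of these differences. From the estimated depth and the exonic length of each gene, the 10 genes rested on about 292 (zuc) to 24220 (tud) fragments in neurons and on about 884 (vas) to 13987 (AGO3) fragments in NSCs. The 95% counting interval of the log2 FPKM ratio, without the added 1, ran from -2.71 to -2.34 for zuc and from -1.64 to -1.29 for krimp, the widest 2 of the 10. It ran from -2.01 to -1.90 for AGO3, from -1.89 to -1.70 for aub and from -1.33 to -1.12 for piwi, so the intervals of the 3 Argonautes did not overlap. The interval of squ ran from -2.10 to -1.96 and that of spn-E from -1.17 to -0.98, on both sides of 2-fold. Above 0, vas ran from 1.15 to 1.38 and tud from 1.07 to 1.14. The interval of armi, from -0.26 to 0.01, spanned 0, so its small difference was not detectable at this depth. In neurons armi rested on more fragments than krimp or zuc, but in NSCs on fewer (896, beside 932 and 1559). These intervals rest on estimated fragments and leave out all variation between preparations.

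The order of the 10 genes by level differed between the libraries. In neurons it was tud, squ, AGO3, vas, aub, piwi, spn-E, zuc, armi and krimp, from 39.7 to 2.19 FPKM. In NSCs it was squ, AGO3, zuc, aub, tud, piwi, spn-E, vas, krimp and armi, from 102.2 to 3.45 FPKM. The gene tud was thus in place 1 in neurons and 5 in NSCs, and zuc in place 8 in neurons and 3 in NSCs. Among all genes of the table squ stood at percentile 71.4 in neurons and 92.8 in NSCs, AGO3 at 64.7 in neurons and 88.95 in NSCs, and zuc at 41.3 in neurons and 72.3 in NSCs. The opposite held for tud, at percentile 81.2 in neurons and 66.95 in NSCs, and for vas, at 61.0 in neurons and 52.1 in NSCs. The lowest were krimp in neurons (34.3) and armi in NSCs (45.5). Neighbours closer than 2 counting errors of their ratio were spn-E and zuc in neurons (0.52) and vas and krimp in NSCs (1.42), and whether other neighbours differ beyond replicate spread cannot be said from single libraries. Of the 10 genes, 4 were above the median of all genes in neurons (8.76 FPKM) and 9 in NSCs (5.28 FPKM).

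Several of the 10 genes share sequence with neighbours, and it was not stated whether reads were counted by strand. In the Ensembl annotation of BDGP6, another assembly than the one used for the files, vas (FBgn0283442, arm 2L, 2285 bp of exons) overlaps vig on the opposite strand and shares 563 bp of exons with solo. The gene vig had 231 FPKM in neurons and 102 FPKM in NSCs, a change of 1.18 next to the 1.15 of vas, and solo has no row under its name or a synonym in the table. No exon of vig overlaps one of vas in this annotation, and the part of vig or solo transcripts in the vas value was not tested. The value of vas is therefore uncertain.

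For armi (FBgn0041164, arm 3L) 99.6% of the exonic bases also belong to CG46463, which has no row in the table, so its value may hold both. Exons of squ (FBgn0267347, arm 2L) share 223 bp, 16.3% of their length, with the checkpoint kinase gene grp on the same strand. The gene grp had 37.8 FPKM in neurons and 70.3 FPKM in NSCs, a change of -0.88 that was smaller than that of squ. Exons of piwi (FBgn0004872, arm 2L) share 191 bp with a gene on the opposite strand, those of zuc (FBgn0261266, arm 2L) 67 bp and those of aub (FBgn0000146, arm 2L) 79 bp. Of these neighbours SCAR beside piwi had a change of 0.60, TTLL4A beside aub 0.25 and CG34163 beside zuc -1.35. The span of spn-E (FBgn0003483, arm 3R) overlaps Pbp45 on the opposite strand with no shared exonic base, and Pbp45 had a change of -0.49.

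The other 3 genes, tud, krimp and AGO3, overlap no other gene in this annotation when transposons are left aside. The change of 1.06 of tud (FBgn0003891, arm 2R) thus holds no overlapping gene, as do those of krimp (FBgn0034098, arm 2R) and AGO3 (FBgn0250816, arm 3L). The last is an unusual gene, with 3182 bp of exons spread over 135048 bp that also hold 106 annotated transposon fragments, compared with 3 in piwi and 0 in the other 8 genes. Only uniquely mapped reads entered the values.

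To see whether the remaining pathway moved with the 10 genes, 39 other piRNA pathway genes in 4 lists were examined. These lists too were chosen with earlier results of these data known. Of the 38 with enough FPKM to be compared, 24 were at least 2-fold lower in neurons, 1 was at least 2-fold higher and 13 stayed within 2-fold, beside 16.6% lower and 26.9% higher among all genes compared. Their median change was -1.26. The gene left out, fs(1)Yb, which acts in somatic cells of the ovary, had 0.78 FPKM in neurons and 0.36 FPKM in NSCs.

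Of 8 genes of nuclear silencing, which act with or after Piwi on chromatin, 7 were at least 2-fold lower in neurons and the median change was -1.47. The gene of the heterochromatin protein HP1a had 168 FPKM in neurons and 814 FPKM in NSCs, a change of -2.27. The Piwi partner gene arx (listed as CG3893) had a change of -1.93, Panx (listed as CG9754) of -1.45 and its partner nxf2 of -1.26. The nuclear silencing and nuage gene mael had a change of -2.06 and the histone H3 lysine 9 methyltransferase gene egg of -1.50. Su(var)2-10, a SUMO ligase gene, was at the threshold with -1.01, and the egg cofactor gene wde stayed within 2-fold at -0.77. Several of these genes have general roles in chromatin outside the piRNA pathway.

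Of 15 genes of piRNA cluster transcription and precursor export, 10 were at least 2-fold lower in neurons, with a median change of -1.15. The germline HP1 relative rhi, which marks piRNA clusters, had 2.49 FPKM in neurons and 20.7 FPKM in NSCs, a change of -2.64 and the lowest of all 48 piRNA pathway genes compared. Its partner cuff had 1.04 FPKM in neurons and 8.20 FPKM in NSCs, a change of -2.17, whereas the remaining member of the complex, del, had 3.65 FPKM in neurons and 4.87 FPKM in NSCs, a change of -0.33. The transcription factor gene moon (listed as CG12721) had a change of -2.37 and the rhi-recruiting zinc finger gene kipf (listed as CG2678) of -1.80. The export genes Nxt1, Hel25E, thoc7, thoc6, thoc5 and Hpr1, which serve mRNAs in general, had changes from -1.48 to -1.01. The precursor export genes boot (-0.99, listed as CG13741) and nxf3 (0.23), the THO complex gene tho2 (-0.66) and the core promoter factor gene Trf2 (-0.64) stayed within 2-fold. By FPKM ratio boot was 2.33-fold lower in neurons, but with the added 1 it did not reach 2-fold.

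Of 10 biogenesis genes compared, 4 were at least 2-fold lower and 6 stayed within 2-fold, with a median change of -0.67. The lower 4 were the Tudor domain genes BoYb (-2.11), SoYb (-2.11) and vret (-1.92) and the mitochondrial scaffold gene daed (-1.63, listed as CG10880). BoYb had 2.50 FPKM in neurons and 14.1 FPKM in NSCs. Genes that stayed within 2-fold were the co-chaperone gene shu (-0.75), Hen1 (-0.59), the mitochondrial Tudor domain gene papi (-0.54), the mitochondrial scaffold gene Gasz (-0.51, listed as CG2183), Nbr (-0.49) and the acyltransferase gene mino (0.43, listed as CG5508). They include the enzyme genes that finish piRNA 3′ ends, Hen1 by methylation and Nbr by trimming. By FPKM ratio shu was 2.08-fold lower in neurons, but with the added 1 it did not reach 2-fold. Within production, zuc and squ thus went with the lower 4 and armi with those within 2-fold.

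Among 5 genes of the nuage and of arginine methylation, 3 were at least 2-fold lower and 1 was higher. The Tudor domain gene tej had a change of -1.64, beside -1.14 for krimp. The genes csul and vls, which encode the methyltransferase and its cofactor that modify PIWI proteins for Tudor binding, had changes of -1.79 and -1.26, and the Tudor domain gene qin had -0.34. The exception was tapas (listed as CG8920), a Tudor domain gene with 30.7 FPKM in neurons and 4.19 FPKM in NSCs, a change of 2.61. Of the 48 piRNA pathway genes compared, 3 were at least 2-fold higher in neurons (vas, tud and tapas), beside 26.9% of all genes compared. Each encodes a nuage or Tudor domain protein, but the value of vas is uncertain, as described above. Other Tudor domain genes were at least 2-fold lower (krimp, tej, vret, BoYb and SoYb) or within 2-fold (spn-E, papi and qin).

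**Figure D3:**
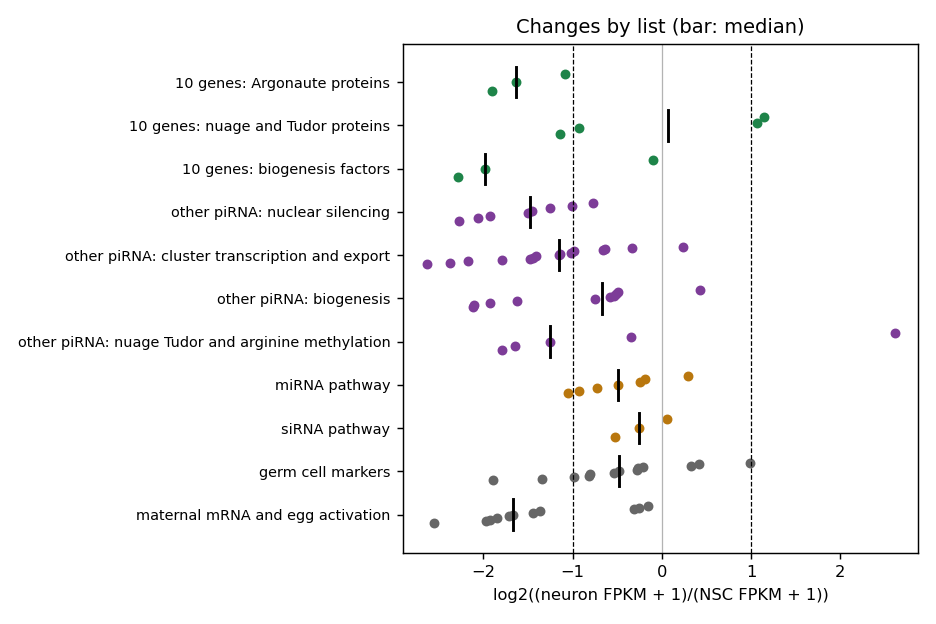
Log2 change (neuron over NSC) of each compared gene in the 3 role groups of the 10 genes, the 4 lists of other piRNA pathway genes, the miRNA and siRNA pathways, germ cell markers and maternal mRNAs. Bars are medians and dashed lines are 2-fold. Of the 10 genes, the Argonautes and biogenesis factors lie wholly below 0, as do the nuclear silencing and maternal mRNA lists. The gene tapas stands alone at 2.61.

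The miRNA and siRNA pathways served as the nearest small RNA pathways. Of 7 miRNA pathway genes 1 was at least 2-fold lower, Ranbp21 with -1.05, beside 16.6% of all genes compared. The median change of the 7 genes was -0.49. The processing genes drosha (-0.73), pasha (-0.93), Dcr-1 (-0.49) and loqs (0.30), the effector gene gw (-0.24) and the siRNA genes AGO2 (-0.26), Dcr-2 (0.06) and r2d2 (-0.52) stayed within 2-fold. None of the 3 siRNA genes reached 2-fold and their median change was -0.26. Of the 10 piRNA genes only armi and spn-E stayed within 2-fold. The difference between these pathways and the piRNA genes was not tested.

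Since these genes are known from germ cells and eggs, markers of both were set beside them. Of 13 germ cell markers 2 were at least 2-fold lower, pgc and osk, and none was higher (highest Tre1, 0.98). Among all genes compared, 16.6% were at least 2-fold lower and 26.9% at least 2-fold higher. The gene pgc had 7.75 FPKM in neurons and 31.4 FPKM in NSCs, and osk had 7.02 FPKM in neurons and 19.4 FPKM in NSCs. By FPKM ratio, without the added 1, bam (2.625-fold), stil (2.85-fold) and bgcn (2.06-fold) were also lower in neurons, and Tre1 was 2.01-fold higher. The germ cell determinant gene nos had 5.35 FPKM in neurons and 8.22 FPKM in NSCs, a change of -0.54. The summed level of the 13 markers was 222 FPKM in each library, but it rested mostly on wun2, Tre1, gcl and ovo. In neurons these had 59.1, 58.9, 41.8 and 26.8 FPKM, and in NSCs 44.1, 29.3, 33.0 and 31.3 FPKM. The equal sums therefore say little of the other markers. Of the 13 changes 10 were below 0 and the median was -0.48. No marker was at 0 FPKM in either library. Of 11 genes of maternal mRNAs and egg activation, 8 were at least 2-fold lower in neurons and none was higher, beside the same shares of all genes. Their median change was -1.67. Their summed level was 475 FPKM in neurons and 1521 FPKM in NSCs, mostly from smg, me31B and tral. Changes ran from -2.55 for plu to -0.16 for exu. Levels of these listed genes were thus lower in neurons beside those of most of the 10 genes. How much of them was maternal mRNA, and its part in the result, was not tested.

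The lists of other tissues held changes in both directions. Somatic gonad markers ran from -1.78 for Six4 to 2.86 for chinmo (3 of 5 at least 2-fold higher, 1 lower, summed level 245 FPKM in neurons and 90.5 FPKM in NSCs), glial markers from -0.59 for gcm to 3.38 for repo, muscle markers from -1.93 for bap to 2.48 for Mhc, hemocyte markers from 0.45 for srp to 4.31 for Pxn and tracheal markers from -1.38 for btl to 0.60 for trh. At least 2-fold higher were 2 of 4 glial, 1 of 4 muscle and 1 of 2 hemocyte markers compared, and at least 2-fold lower were 2 muscle and 1 of 2 tracheal markers. Summed levels were 112 FPKM in neurons and 77.9 FPKM in NSCs for glia, 433 FPKM in neurons and 155 FPKM in NSCs for muscle, 139.995 FPKM in neurons and 41.7 FPKM in NSCs for the 3 hemocyte markers, and 36.6 FPKM in each library for trachea. The hemocyte sum includes Hml, which was too low to be compared, with 0.49 FPKM in neurons and 0.61 FPKM in NSCs. The somatic gonad sum in neurons rested mostly on chinmo and zfh1, with 156 and 69.4 FPKM there and 20.7 and 33.4 FPKM in NSCs. Whether these 2 genes mark gonad cells in these libraries was not tested. The part of the listed cell types in the values of the 10 genes was not tested.

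Over the 2 libraries, the 3 genes nearest to piwi by distance in log2(FPKM + 1) were CG31198 (0.018), CG8950 (0.022) and Cpr49Ag (0.024). Such likeness rests on 2 values only.

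The calls of 5 of the 10 genes depended on the scaling or on the pseudocount. Scaling each library to a sum of 1000000 (TPM) moved the median change of all genes upward by 0.25, so that 11.8% of all genes were at least 2-fold lower and 33.8% at least 2-fold higher. The median change of the 10 genes was then -0.93 and that of all genes 0.39. Under this scaling aub, AGO3, zuc and squ remained at least 2-fold lower, whereas piwi moved to -0.87 and krimp to -0.99. A pseudocount of 5 moved piwi to -0.74, krimp to -0.62, tud to 0.93 and vas to 0.84, all within 2-fold, while a pseudocount of 0.1 brought spn-E to -1.06. The change of armi moved to 0.12 under TPM scaling, the only change of sign. Under the 2 other pseudocounts and 3 other scalings the changes of aub, AGO3, zuc and squ lay between -2.497 and -1.21.

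**Figure D4:**
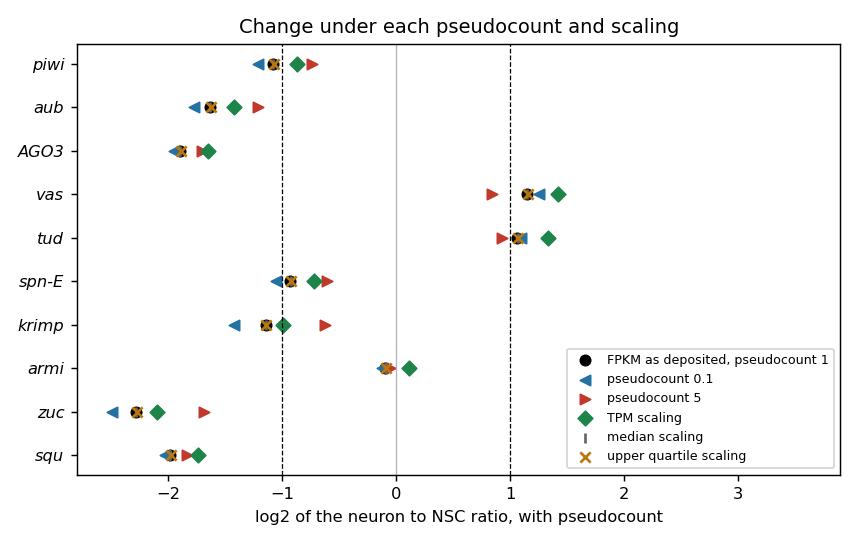
Log2 change of the 10 genes (rows) under the deposited scale with a pseudocount of 1 and under 2 other pseudocounts and 3 other scalings, with dashed lines at 2-fold. The points of aub, AGO3, zuc and squ all lie left of the lower line, those of piwi, krimp, spn-E, vas and tud straddle a line, and those of armi lie around 0.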

How the data were processed

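Nuclear RNA of both libraries was sequenced by the authors. Per the labels and the study's methods, TopHat 1.3.1 was used for alignment (dm3, with the transcripts of FlyBase 5.43), and Cuffdiff 1.3.0 gave expression values from reads with a unique position. The deposited FPKM values, 1 per gene and library, were used as the authors made them. Read length, strandedness and gene filters were not given in the sources used here. The table repeats its header line before every gene row, and 13624 header lines were removed.

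Calculations used Python 3.11.15, pandas 2.3.3 and scipy 1.17.1. Depth was the fragment number at which low FPKM values (below 0.5) times exonic length less 200 bp came closest to whole numbers. The periodicity strength (0 to 1) was 0.86 for neurons and 0.81 for NSCs. Exonic lengths and overlaps were taken from Ensembl 115 (BDGP6), and no coordinates were carried between assemblies. The depth and change functions were tested on simulated data without noise, made with the same 200 bp and with known lengths. Such a test checks the code and not how well its assumptions hold for these libraries. The 117 listed genes were all matched, 11 of them through RefSeq synonyms. The text names all 10 genes, every gene of the other small RNA lists, and of each marker list the highest and lowest change with sca, elav, nos, pgc and osk. Further marker genes are named where they made up much of a summed level, where the added 1 decided the call, or where they were too low to be compared. It also names genes overlapping the 10 and the 3 genes nearest to piwi. The 10 genes and the lists were chosen with earlier results of these data known. Sequences were not used here.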

Additional observations from a re-analysis of the deposited data

How the results depend on the processing

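The number of the 10 genes at least 2-fold lower was 6 as reported, beside 16.6% of all genes compared. It was 7 with a pseudocount of 0.1 (all genes 18.9%), 4 with a pseudocount of 5 (11.8%), 4 under TPM scaling (11.8%) and 6 under median and upper quartile scaling (16.5% and 16.4%). It was 6 of 9 where 5 FPKM in either library was required (18.9%) and 6 of 10 with no filter (12.4%). At a lower threshold of 1.5-fold 7 were lower (27.8%). It was 2 of 3 (krimp and AGO3) when genes overlapping another gene were left out, an alternative chosen after seeing the data. The number at least 2-fold higher was 2 as reported, 0 with a pseudocount of 5, where the share of all genes was 16.1% in place of 26.9%, and 1 of 3 (tud) without overlapping genes. With a pseudocount of 5 the change was -0.74 for piwi, -0.62 for krimp, 0.84 for vas and 0.93 for tud, with a median of -0.68 over the 10 genes. A larger pseudocount pulls low genes toward 0 by construction. Under TPM scaling it was -0.87 for piwi and -0.99 for krimp, the median was -0.93, and armi reversed to 0.12. A pseudocount of 0.1 took spn-E to -1.06. Under median scaling and upper quartile scaling each of the 10 genes kept its call. Of the 38 other piRNA pathway genes compared, 20 to 26 were at least 2-fold lower under the other pseudocounts and scalings, beside 11.8% to 18.9% of all genes. These settings were tried for these genes after seeing the data. No paired analysis was possible because each group has 1 library. The change of armi was small beside its counting interval, and depth limits the lowest genes, such as cuff, which rested on about 80 fragments in neurons. Replicates would be needed to judge any change.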
